A study of Mus musculus with 26 samples.

Results

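Fgf5, Pou3f1, Otx2, Fgf8, Wnt8a and T are genes of the primed epiblast and the early primitive streak, and they were taken by name, with every probe that the platform's annotation gives them. Of the 6 genes, 5 had a probe among the 16593 genes that the probes name, and T was not analysed here. All 5 passed the detection filter that left 10660 genes for testing. The filter is met by detection in any 1 line, so a gene measured in a few lines could pass. Fgf5, Pou3f1, Otx2 and Fgf8 have 1 probe each. Wnt8a has 3, of which the brightest stands for the gene below.

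Naive pluripotent cells, such as mouse embryonic stem cells, resemble the epiblast before implantation. After implantation the epiblast passes through a formative into a primed state, in which naive genes decline and Otx2, Pou3f1 and Fgf5 are transcribed. In the streak that forms next, cells that enter gastrulation transcribe Wnt8a, Fgf8 and the T-box gene T. Otx2 and Pou3f1 (also named Oct6) are transcription factors that act with Pou5f1 at enhancers of the formative state. Fgf5 and Fgf8 are secreted ligands of FGF receptors, and Wnt8a is a secreted ligand of the WNT pathway.

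RNA of 13 mouse cell lines was hybridised to Illumina BeadChips, with 2 technical arrays, a and b, per line. Per the labels, all lines share the strain background OG2, named for mice with a green fluorescent protein transgene under regulatory sequence of Pou5f1. There were 4 lines of induced pluripotent stem cells whose source was germline stem cells (iPSC) and 4 lines of pluripotent stem cells derived from the germline (gPSC). A further line of induced cells had fibroblasts as its source (Fib-iPSC), and 1 line of embryonic stem cells (ESC), 2 of germline stem cells (GSC) and 1 of fibroblasts (Fib) completed the series. The labels do not say which GSC line gave which iPSC or gPSC line, nor give age, passage, reprogramming factors or feeder cells. A line is the unit of every comparison, so a group of 1 line has no spread of its own.

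Levels are log2 values after background correction and quantile normalization, and levels of different genes cannot be set against each other, since each probe binds with its own strength. An array's floor, the lowest signal that counted as detected (detection p-value under 0.05), had a median of 4.63 and ran from 4.56 to 4.81. Median raw intensity ran from 89.17 to 143.2 per array, and 12097 to 13808 probes were detected. The number of lines limits the precision. By this median, array a of each gPSC, Fib-iPSC, ESC and GSC line stood at 100.1 to 102.9, array b of those lines and every iPSC array at 89.17 to 93.96, and the Fib arrays at 134.4 and 143.2. The b arrays alone, which leave out the brighter set except for Fib, gave the same member calls in each comparison. The labelled cell types were checked against marker lists. Of 10 markers of pluripotent cells, 9 or 10 were detected on both arrays in each of the 10 pluripotent lines, 5 in each GSC line and 1 in Fib. The marker short of detection in gPSC 3, gPSC 4 and Fib-iPSC was Tdgf1. Of 11 germline stem cell markers all 11 were detected in both GSC lines, and all 14 fibroblast markers in Fib.

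Of the 5 measured genes, RefSeq promoter sequence (build GRCm38.p6) was matched for Fgf5, at 1 start site, and for Otx2, at 4. Shown are the Fgf5 window and the 2 Otx2 windows that held a match to the letters given below, while the other 2 Otx2 windows held none and are not printed. No promoter sequence was matched for Pou3f1, Fgf8 and Wnt8a, so none is shown for them. Each window runs from 250 bases before a transcript's start to 50 after it, 5′ to 3′ on the gene's strand, so that it holds upstream sequence and the beginning of the first exon. Capitals mark matches to the letters searched for. The first window is that of Fgf5 at chr5:98253934-98254233 on the plus strand (GC content 68.3%), the other windows are those of Otx2 at chr14:48667595-48667894 (41.7%) and chr14:48665060-48665359 (51%), both on the minus strand.
Fgf5: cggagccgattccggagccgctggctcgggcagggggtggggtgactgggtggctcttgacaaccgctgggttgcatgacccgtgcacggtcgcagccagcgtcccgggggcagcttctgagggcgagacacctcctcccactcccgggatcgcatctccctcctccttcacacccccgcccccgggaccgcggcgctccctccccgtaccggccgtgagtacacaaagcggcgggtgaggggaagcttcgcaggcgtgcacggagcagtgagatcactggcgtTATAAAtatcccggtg
Otx2 upstream start: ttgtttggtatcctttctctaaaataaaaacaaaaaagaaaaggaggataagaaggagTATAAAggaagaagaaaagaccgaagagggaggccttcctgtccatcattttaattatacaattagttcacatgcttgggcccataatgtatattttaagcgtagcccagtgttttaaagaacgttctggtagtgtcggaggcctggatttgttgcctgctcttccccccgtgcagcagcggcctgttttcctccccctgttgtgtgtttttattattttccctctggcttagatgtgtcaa
Otx2 inner start: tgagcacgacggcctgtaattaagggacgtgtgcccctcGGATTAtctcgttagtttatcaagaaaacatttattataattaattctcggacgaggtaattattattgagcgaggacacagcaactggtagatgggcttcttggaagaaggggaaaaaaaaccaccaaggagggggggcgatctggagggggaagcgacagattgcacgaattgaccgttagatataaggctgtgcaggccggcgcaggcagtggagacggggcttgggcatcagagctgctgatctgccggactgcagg
The letters searched for, on both strands, were TATAAA (the TATA box), TAATCC (the core bound by OTX proteins), ATGCAAAT (the octamer of POU proteins) and TCACACCT (a T-box motif), and no match overlapped another. TATAAA lies 34 bases after the annotated start of Fgf5 and at offset -192 from the upstream start of Otx2. TAATCC lies on the opposite strand of the inner Otx2 window, at offset -211, where the printed strand reads GGATTA. Over 32851 RefSeq promoter windows of this length, TATAAA was in 13.6%, TAATCC in 7.06%, ATGCAAAT in 1.74% and TCACACCT in 1.28%. The octamer and the T-box motif had no match in the windows of Fgf5 and Otx2, which says only that those letters are not there.

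Otx2 was the gene of the set with the largest difference between germline and pluripotent cells. Its level was 10.12, 9.60, 9.80 and 9.43 in iPSC 1 to 4. In gPSC 1 to 4 it was 9.05, 9.89, 10.24 and 9.41. Every pluripotent line was thus far above every line that is not pluripotent. Fib-iPSC had 9.33 and ESC 9.99, against 4.29 and 4.27 in the GSC lines and 4.34 in Fib. Otx2 was detected on all 20 arrays of pluripotent lines and on none of the 4 GSC or 2 Fib arrays.

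In the fit over all genes with limma, Otx2 rose in iPSC relative to GSC by 5.46 ± 0.31 (log2 difference with SE, adjusted p = 1.87e-06), at least 35-fold against the floor of the GSC arrays. It rose in gPSC relative to GSC by 5.37 ± 0.31 (limma, adjusted p = 2.31e-06), at least 32.9-fold. Calls required at least a 2-fold difference and a two-sided p under 0.05 after Benjamini-Hochberg adjustment over all genes. Otx2 was the 1 gene called of the 5 in each comparison, where 22.8% of all genes tested were called between iPSC and GSC and 21.6% between gPSC and GSC. With so many genes called, 1 of 5 is near the background of these contrasts. The median difference of the 5 genes was 0.45 for iPSC against GSC and 1.40 for gPSC against GSC, beside -0.02 and 0.01 over all genes.

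**Figure D1:**
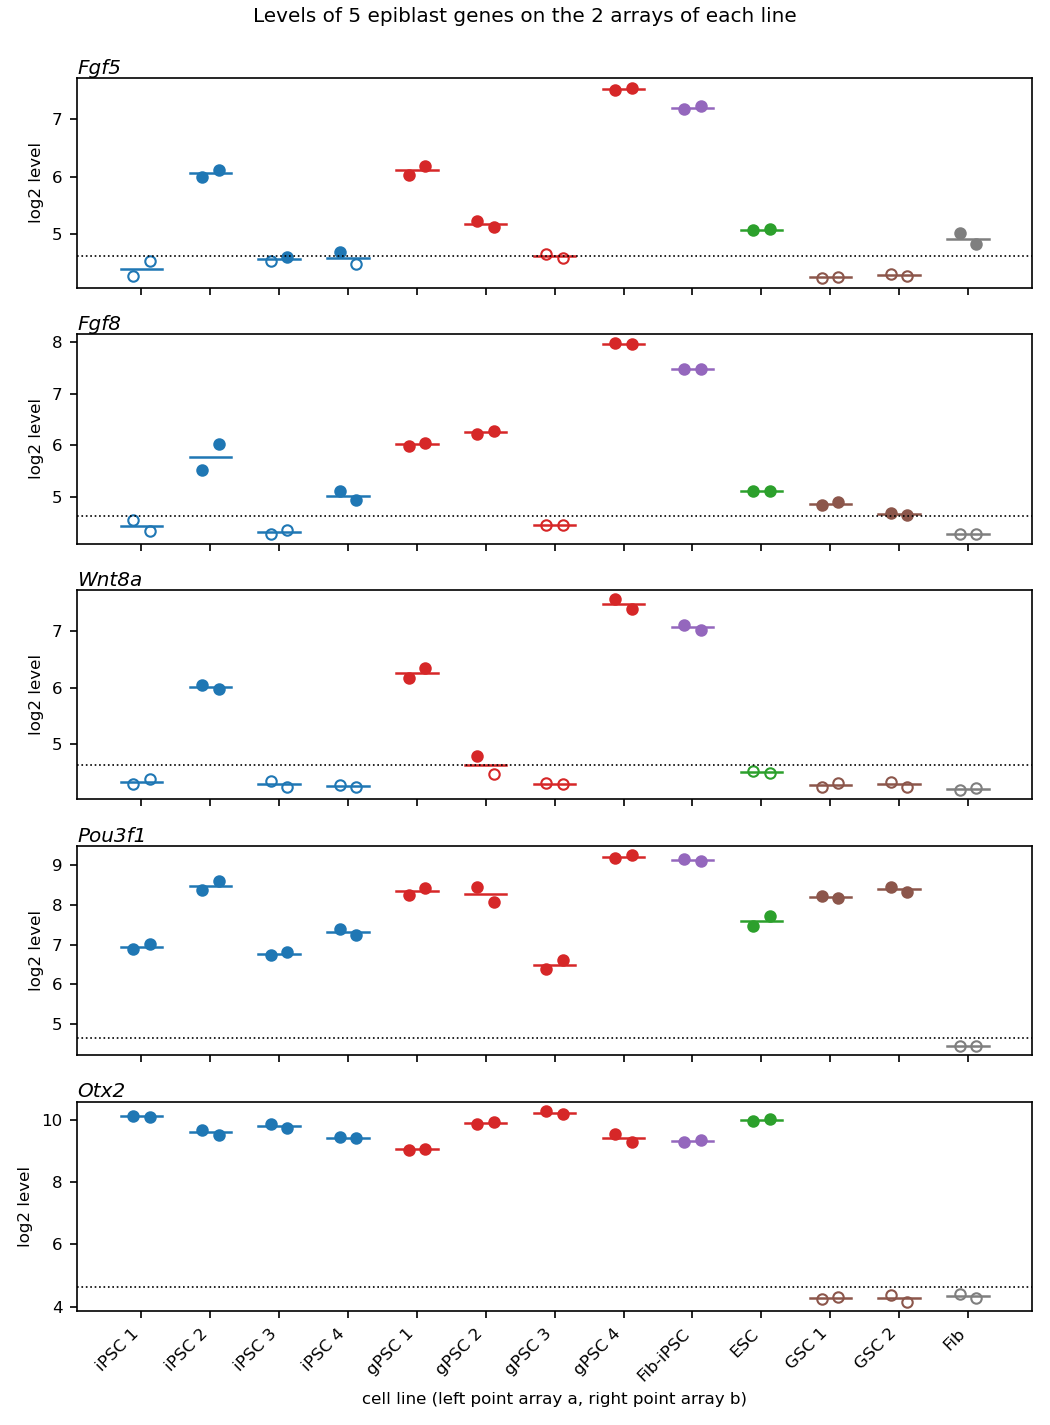
Log2 level of Fgf5, Fgf8, Wnt8a, Pou3f1 and Otx2 (one panel each, own vertical scale) on array a (left point) and array b (right point) of the 13 lines; filled points were detected, open points were not, bars are line means and the dotted line is the median floor of 4.63. Otx2 separates the pluripotent lines from GSC and Fib, while Fgf5, Fgf8 and Wnt8a peak in gPSC 4 and Fib-iPSC.

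Pou3f1, by contrast, was as high in germline stem cells as in many pluripotent lines. It is also known as a factor of spermatogonial stem cells that responds to GDNF. Its level was 6.95, 8.49, 6.77 and 7.32 in iPSC 1 to 4. In gPSC 1 to 4 it was 8.35, 8.28, 6.49 and 9.22. Both groups held lines above and below the germline values. Fib-iPSC had 9.14 and ESC 7.59, against 8.21 and 8.40 in the GSC lines. The Fib level of 4.44 was below detection on both arrays. Pou3f1 was detected on all arrays of the other 12 lines. The difference was -0.92 ± 0.69 for iPSC against GSC (limma, adjusted p = 0.313) and -0.22 ± 0.69 for gPSC against GSC (adjusted p = 0.825).

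Fgf5, the ligand most used as a mark of the epiblast after implantation, was undetected on all 4 GSC arrays, at levels of 4.25 and 4.30. Its level was 4.40, 6.06, 4.57 and 4.59 in iPSC 1 to 4, so iPSC 2 stood apart from the other iPSC lines. In gPSC 1 to 4 it was 6.11, 5.18, 4.63 and 7.52. Fib-iPSC had 7.20, ESC 5.08 and Fib 4.92, a level detected on both Fib arrays. Of 8 arrays in each group, 4 iPSC arrays and 6 gPSC arrays detected it, and gPSC 3 was undetected on both.

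Fgf8, a ligand of streak and midline tissue, had levels of 4.44, 5.77, 4.31 and 5.02 in iPSC 1 to 4. In gPSC 1 to 4 it had 6.01, 6.24, 4.45 and 7.96. The gPSC lines thus held both the highest level of the series and 1 line below detection. Fib-iPSC had 7.48 and ESC 5.10. The GSC lines, at 4.86 and 4.67, were just above the floor and detected on all 4 arrays, while Fib, at 4.28, was not.

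Wnt8a, a WNT ligand of the posterior epiblast and streak, was detected on both arrays in 4 lines only. Its level was 4.33, 6.02, 4.29 and 4.25 in iPSC 1 to 4. In gPSC 1 to 4 it was 6.26, 4.63, 4.29 and 7.48. Beside these, Fib-iPSC had 7.07, and ESC had 4.50 with neither array detected. The 4 lines with a clear signal were thus gPSC 4, Fib-iPSC, gPSC 1 and iPSC 2. The GSC lines had 4.28 and 4.27 and Fib 4.20, all undetected. The other Wnt8a probes followed it over the 10 pluripotent lines, with Pearson r of 0.996 and 0.944. The probe at r 0.944 was detected on both arrays of 3 lines and missed iPSC 2, where its level was 4.445.

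None of these 3 ligands was called between either pluripotent group and GSC. For gPSC against GSC the differences were 1.59 ± 0.74 for Fgf5 (limma, adjusted p = 0.114), 1.40 ± 0.79 for Fgf8 (adjusted p = 0.185) and 1.39 ± 0.85 for Wnt8a (adjusted p = 0.224). Calls changed with the processing, as given in the closing section, and with gPSC 3, the gPSC line low in all 3 ligands. Without it Fgf5 was called at 2.00 (limma, adjusted p = 0.0427) and Fgf8 at 1.98 (adjusted p = 0.0282), and Wnt8a was not, at 1.84 (adjusted p = 0.0944). Against the floors of the GSC arrays, where Fgf5 and Wnt8a were undetected, the gPSC means were at least 2.38-fold and 2.08-fold higher. Without gPSC 4, the highest line, the differences were 1.03, 0.80 and 0.78 for Fgf5, Fgf8 and Wnt8a, and none of the 3 was called. For iPSC against GSC they were 0.63 ± 0.74, 0.12 ± 0.79 and 0.45 ± 0.85 in the same order (limma, adjusted p = 0.528, 0.923 and 0.715), and without iPSC 2 they were 0.25, -0.18 and 0.01.

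Between iPSC and gPSC lines 0 of the 5 genes passed the test, as did 0% of all 10660 genes (limma, 830 genes at an unadjusted p under 0.05, none of them of the 5). The iPSC mean was lower for Fgf5 by -0.95 (95% interval -2.31 to 0.40), for Fgf8 by -1.28 (-2.73 to 0.16), for Wnt8a by -0.94 (-2.50 to 0.62) and for Pou3f1 by -0.70 (-1.96 to 0.56). Their adjusted p-values ran from 0.627 to 0.664 in limma. The Otx2 difference was 0.09 (-0.48 to 0.65, adjusted p = 0.903). These intervals include no difference and also differences of more than 2-fold for the first 4 genes, and the lines of the 2 groups overlapped for every gene. Single gPSC lines moved the sizes: without gPSC 4 the differences were -0.40 for Fgf5, -0.68 for Fgf8, -0.33 for Wnt8a and -0.32 for Pou3f1. Without gPSC 3 they were -1.365, -1.86, -1.40 and -1.23 in the same order, and none was called in either case.

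**Figure D2:**
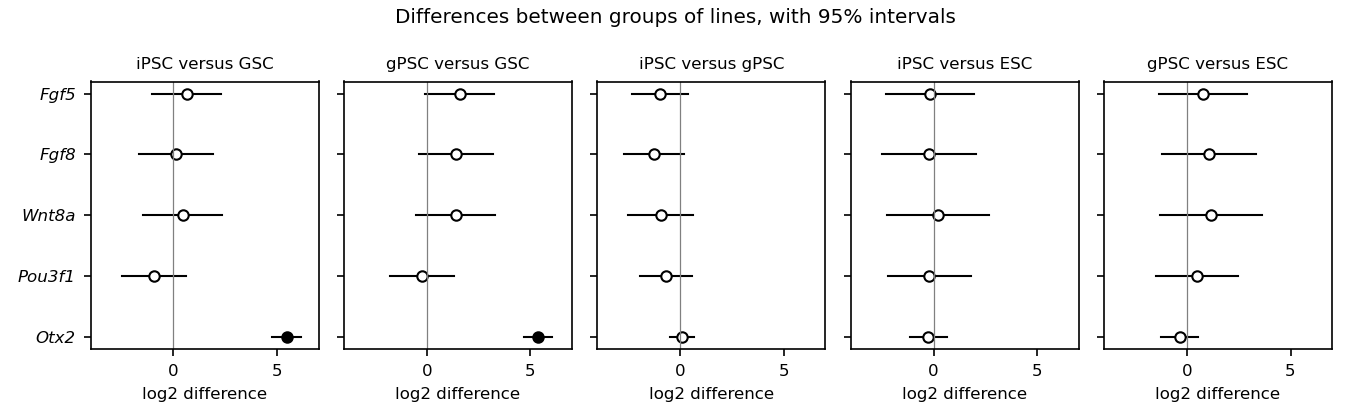
Log2 difference of the group means (first group minus second) for the 5 genes, with 95% intervals from limma, in 5 comparisons; filled points were called, open points were not. Otx2 against GSC, at 5.46 and 5.37, is the called difference, and the intervals of the other genes reach across 0.

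Against ESC, 1 line, 0 of the 5 genes were called in either comparison, where 0.225% of all genes were called for iPSC and 0.244% for gPSC. The smallest unadjusted p of the 5 genes was 0.534 for iPSC and 0.315 for gPSC (limma). The gPSC mean was 1.06 ± 1.02 above ESC for Fgf8 (95% interval -1.22 to 3.35) and 1.165 ± 1.098 above ESC for Wnt8a (-1.31 to 3.64), the widest differences of the set. ESC was undetected for Wnt8a, and against the floors of its arrays the gPSC mean was at least 2.06-fold higher. Without gPSC 4 the differences were 0.46 for Fgf8 and 0.56 for Wnt8a, and without gPSC 3 they were 1.64 and 1.62.

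Fib-iPSC, compared as 1 line with 1 line and so without a test, was higher than its source cell type for all 5 genes. It was at least 20.3-fold above Fib for Pou3f1, at least 23.1-fold for Otx2, at least 6.41-fold for Fgf8 and at least 4.83-fold for Wnt8a, all 4 undetected in Fib. For Fgf5, which Fib arrays detected, the ratio was 4.85-fold. Fib-iPSC was also above ESC for Fgf5 (4.35-fold), Pou3f1 (2.93-fold), Fgf8 (5.18-fold) and Wnt8a (at least 5.46-fold). For Otx2 it was below ESC, by -0.66 on the log2 scale.

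The shared order of the pluripotent lines was the main pattern of the set. Fgf5, Pou3f1, Fgf8 and Wnt8a each placed gPSC 4 at rank 1 and Fib-iPSC at rank 2 of the 10 lines. All 4 genes placed gPSC 1, iPSC 2 and gPSC 2 at ranks 3 to 5, in varying order, and ESC at rank 6, where its Wnt8a signal was below detection. The lowest ranks, 7 to 10, were held in every case by iPSC 1, iPSC 3, iPSC 4 and gPSC 3. The order therefore ran across the groups: iPSC and gPSC lines each had members in the upper and in the lower part.

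Otx2 ran the other way. Its highest line was gPSC 3, at rank 1, followed by iPSC 1 and ESC, while gPSC 4 stood at rank 8, Fib-iPSC at rank 9 and gPSC 1 at rank 10. Among the 6 pairs of the other 4 genes Spearman's rho ran from 0.88 to 0.94 and Pearson's r from 0.90 to 0.99 over the 10 lines. The 4 pairs with Otx2 had rho between -0.73 and -0.58. These are descriptions over lines of several groups, which share the normalization, and the median over all 10 pairs was 0.891. Leaving out the 2 lines farthest from the median of the first gene, r was 0.69 to 0.965 in the 6 pairs and -0.70 to -0.565 in the pairs with Otx2.

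**Figure D3:**
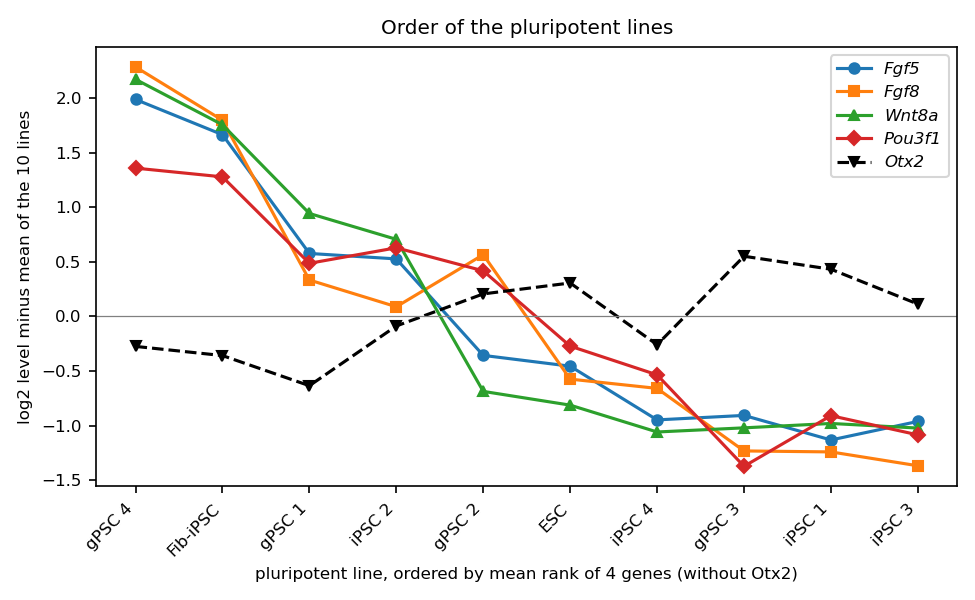
Log2 level minus the mean of the 10 pluripotent lines (vertical axis) for the 5 genes, with lines ordered by their mean rank in Fgf5, Fgf8, Wnt8a and Pou3f1. Those 4 genes descend together from gPSC 4 and Fib-iPSC, and the dashed Otx2 line is lowest in gPSC 1 and highest in gPSC 3.

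Some steps of the order were smaller than the spread between the arrays of a line. Of 9 neighbouring pairs of lines, the array values overlapped in 3 for Fgf5, 2 for Pou3f1, 3 for Otx2, 3 for Fgf8 and 4 for Wnt8a. For Fgf5, gPSC 1 and iPSC 2 could not be told apart, nor could gPSC 3, iPSC 4 and iPSC 3 in sequence. For Wnt8a the lines from rank 6 (ESC) to rank 10 were all undetected and have no order among them, and gPSC 2, detected on 1 array, overlapped ESC. For Fgf8 the lines from rank 8 to rank 10, gPSC 3, iPSC 1 and iPSC 3, were undetected as well. For Fgf5 the lines at ranks 7 and 10 were undetected and those at ranks 8 and 9 were detected on 1 array each. For Pou3f1 the overlaps joined iPSC 2, gPSC 1 and gPSC 2. The step between gPSC 4 and Fib-iPSC did not overlap for any of the 4 genes, and it was narrowest for Pou3f1, where the arrays read 9.18 and 9.26 in gPSC 4 and 9.16 and 9.12 in Fib-iPSC.

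The range between the highest and the lowest pluripotent line was 6.64-fold for Pou3f1 and 2.28-fold for Otx2. For the ligands the lowest line was undetected, and against the floors of its arrays the range was at least 10.5-fold for Fgf8, at least 7.53-fold for Fgf5 and at least 7.32-fold for Wnt8a. The SD between these 10 lines was 1.27 for Fgf8 and for Wnt8a, 1.135 for Fgf5, 0.97 for Pou3f1 and 0.38 for Otx2, beside a median of 0.27 over the 9054 genes compared. Their SD exceeded that of 99.3%, 99.2%, 98.7%, 97.6% and 72.9% of these genes in the same order. The SD between the arrays of a line was 0.08 to 0.14, so that the SD between lines was 4.62 times (Otx2) to 13 times (Wnt8a) as large. Ranges of genes with lines at background are compressed there.

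The genes most like each of the 5 were sought among 1374 genes that were detected in at least 3 pluripotent lines and had an SD of at least 0.5 between them. Fgf5 and Wnt8a shared their closest genes, the kinase gene Pim2 (r 0.988 and 0.987), the zinc finger gene Sall2 (0.980 and 0.986) and the ephrin receptor gene Epha1 (0.977 and 0.981). Each was also near the top of the other's list, Wnt8a at rank 2 for Fgf5 and Fgf5 at rank 1 for Wnt8a. The other pairs were less close: Fgf8 stood at rank 12 and Pou3f1 at rank 23 for Fgf5, and Fgf8 at rank 36 and Pou3f1 at rank 42 for Wnt8a. For Pou3f1 the ranks were 11 (Fgf8), 38 (Fgf5) and 81 (Wnt8a), and for Fgf8 they were 3 (Pou3f1), 7 (Fgf5) and 27 (Wnt8a). Many genes shared the pattern: r was over 0.9 for 40 genes with Fgf5, 76 with Pou3f1, 33 with Fgf8, 39 with Wnt8a and 4 with Otx2. Pou3f1 was matched by Vrtn (0.979), the phosphatase subunit gene Ppp4r1 (0.976) and Tafa4 (0.971), and Fgf8 by Vrtn (0.970), Tafa4 (0.960) and Ppp4r4 (0.952). Otx2 was matched by other genes: Cdc7, a kinase of replication origins (0.908), Smc1b, a meiotic cohesin subunit (0.907), and Cfap20dc (0.902).

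Over the mean pattern of the 5 genes, each centred, the highest r values were those of Vrtn (0.992), Tafa4 (0.982), Pim2 (0.975), Sall2 (0.974) and Cachd1 (0.962). All 5 were highest in gPSC 4 and lowest in iPSC 3. The lowest were those of Pde8a, a cyclic AMP phosphodiesterase (-0.957), the homeobox gene Irx2 (-0.955), Ly6g6e (-0.951), Sccpdh (-0.950) and Aifm2 (-0.941). All of these were lowest in gPSC 4. Of the genes searched, 50.2% had r above 0 with this mean, and the median was 0.02. The 5 genes were not scaled, so the mean mainly follows the 4 other than Otx2, which had the smallest SD and the opposite order. With Otx2 left out of the mean, list medians were 0.654 (formative and primed epiblast), -0.83 (naive pluripotency) and 0.65 (fibroblasts and feeder cells).

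Gene lists of related programmes were set beside this mean pattern. Of 20 tested formative and primed epiblast genes, 10 met the same conditions and 7 had r above 0, with a median of 0.655. Pim2 was highest and Krt18, a keratin of simple epithelia, lowest at -0.664. Dnmt3b, a DNA methyltransferase of the formative state named here after its values were seen, had r 0.926. Its level was 12.90 in gPSC 4 and 12.75 in Fib-iPSC but 10.14 in gPSC 3 and 10.22 in iPSC 3. Naive pluripotency genes ran the other way: of 7 that met the conditions 1 had r above 0, with a median of -0.82. The lowest was the naive ligand gene Fgf4 (-0.871) and the exception was Gbx2 (0.783), a homeobox gene that later marks anterior hindbrain and is also on the neuroectoderm list.

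**Figure D4:**
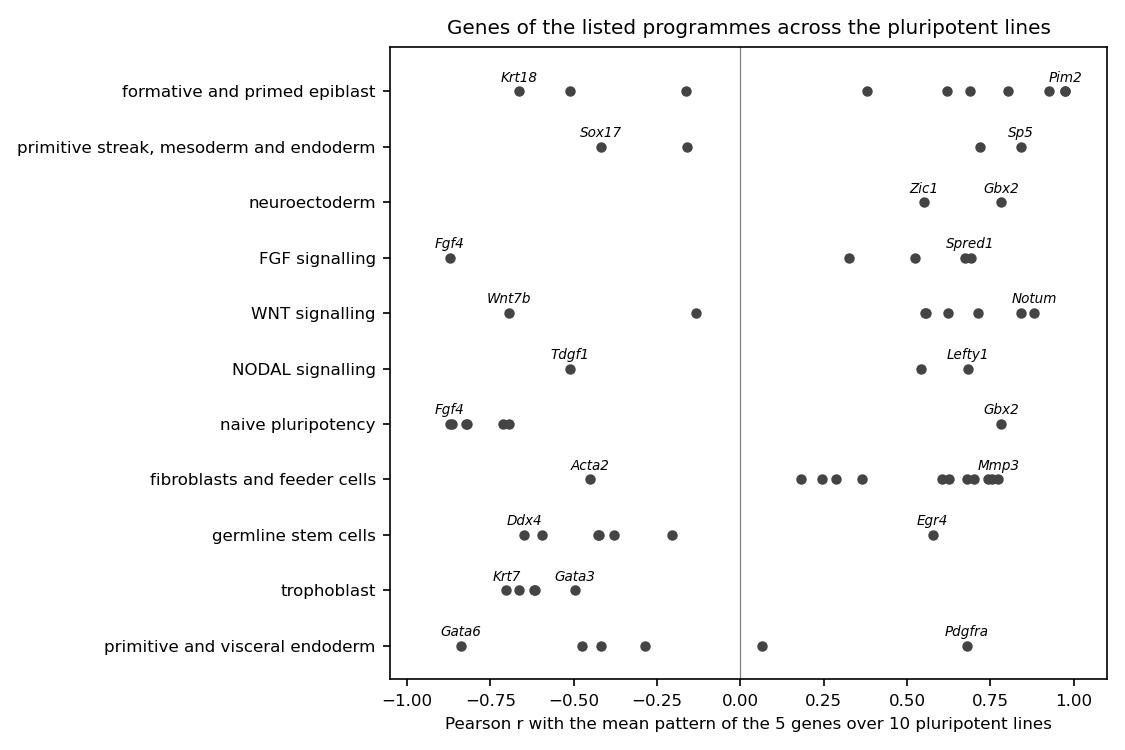
Pearson r of single genes (points) of each list with the mean centred pattern of Fgf5, Pou3f1, Otx2, Fgf8 and Wnt8a over the 10 pluripotent lines, for genes detected in at least 3 of the lines with an SD of at least 0.5; the highest and lowest gene of each list are named. Naive pluripotency genes other than Gbx2 lie below 0, and fibroblast and feeder markers other than Acta2 above it.

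Signalling genes of the ligands' own pathways were mixed. Of 16 tested FGF signalling genes 5 met the conditions and 4 had r above 0. Spred1, an inhibitor of the RAS pathway, was highest (0.691) and Fgf4, with r below 0, lowest (-0.871). Of 23 tested WNT signalling genes 8 met them and 6 had r above 0, with Notum, a secreted feedback inhibitor of WNT ligands, highest (0.882) and the ligand gene Wnt7b lowest (-0.694). Of 13 tested NODAL signalling genes 3 met them and 2 had r above 0. Lefty1, a NODAL antagonist, had 0.684 and the coreceptor gene Tdgf1 -0.511. Tdgf1 was near background in gPSC 3 (4.28), gPSC 4 (4.39) and Fib-iPSC (4.32) and between 9.21 and 10.57 in the other pluripotent lines. Of 19 tested primitive streak, mesoderm and endoderm genes 4 met them and 2 had r above 0, Sp5, a WNT target, highest (0.841) and Sox17, an endoderm factor, lowest (-0.419). On the neuroectoderm list both genes that met them, Zic1 and Gbx2, had r above 0.

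The calls of these lists relative to GSC are read against all genes, of which 11.1% were called higher and 11.7% lower in iPSC and 10.2% higher and 11.5% lower in gPSC. Of 18 tested naive pluripotency genes 14 rose and 1 fell in iPSC and 13 rose and 1 fell in gPSC, with median log2 differences of 2.54 and 2.31. Of the 20 formative and primed epiblast genes, 10 rose and 2 fell in iPSC and 9 rose and 2 fell in gPSC. Dnmt3l, a cofactor of DNA methyltransferases, was 6.81 higher in iPSC and 6.68 higher in gPSC (log2, limma, adjusted p = 1.01e-06 and 1.29e-06), and the chromatin factor gene Utf1 was 4.69 and 4.93 higher (2.08e-07 and 1.51e-07). The median log2 difference of the list was 1.23 for iPSC and 1.83 for gPSC. Of the 19 streak genes 3 rose and 1 fell in iPSC and 1 rose and 1 fell in gPSC, with medians of 0.04 and 0.14, which is near the background in iPSC and below it in gPSC. The 1 that rose in gPSC was Gsc, the organizer gene (at least 2.99-fold), and Lhx1, a LIM homeobox gene, fell in both. Of 16 FGF signalling genes 5 rose and 2 fell in iPSC and 6 rose and 2 fell in gPSC, with medians of 0.91 and 0.93. Of 23 WNT signalling genes 4 rose and 1 fell in either group (medians 0.07 and 0.30), near the background. Of 5 neuroectoderm genes 1 rose and 1 fell in iPSC and 2 rose and 0 fell in gPSC (medians -0.495 and -0.50), and of 13 NODAL signalling genes 5 rose and 0 fell in either (medians 0.20 and 0.21). The NODAL family gene Gdf3 was at least 30.2-fold higher in iPSC and at least 34-fold higher in gPSC. In limma 0 genes of these lists passed the test between iPSC and gPSC, as for all genes.

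Markers of fibroblasts and feeder cells moved with the shared order. Of the 12 such markers that met the conditions 11 had r above 0 with the mean pattern, with a median of 0.62. The mean level of the 14 tested markers was 5.47 to 7.24 in the iPSC lines, 6.22 to 9.22 in the gPSC lines, 7.69 in Fib-iPSC, 7.53 in ESC, 6.58 and 7.06 in the GSC lines and 9.86 in Fib. It correlated over the 10 pluripotent lines with Fgf5 (r 0.61), Pou3f1 (0.665), Fgf8 (0.60) and Wnt8a (0.63) and with Otx2 at -0.74. The highest marker mean was that of gPSC 1, which ranked 3 or 4 for the first 4 genes and 10 for Otx2. Without gPSC 1 these values were 0.65 to 0.78 and -0.57. None of Pou3f1, Otx2, Fgf8 and Wnt8a was detected on the Fib arrays, and Fgf5 was 4.92 there. The Fib line was not high in all markers: Dcn, a matrix proteoglycan gene, was 11.68 in gPSC 1 and 7.30 in Fib. The markers' part in the order was not tested. In bulk RNA fewer cells that transcribe a gene and less of its RNA per cell cannot be told apart.

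Trophoblast markers moved against the order, and germline markers did so in part. All 5 trophoblast markers that met the conditions had r below 0, from -0.50 for Gata3 to -0.70 for Krt7, and their list's mean level was highest in iPSC 3, at 8.04, against 5.45 to 6.72 in the other pluripotent lines. Of 7 germline stem cell markers 1 had r above 0, Egr4. The list's mean was 5.27 to 6.67 in the pluripotent lines, against 9.42 and 9.54 in the GSC lines. It was 6.67 in iPSC 3 and 6.06 in gPSC 3, both low in the order. In iPSC 1 and iPSC 4, also low in the order, it was 5.48 and 5.51, below gPSC 4 (5.55) and Fib-iPSC (5.67). Of 6 primitive and visceral endoderm markers 2 had r above 0. Whether these markers bear on the order was not tested.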

How the data were processed

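RNA of 13 lines, in 6 groups given by the labels, was measured on 26 arrays. The deposited table gives, per array, the intensity of 25697 probes, neither normalized nor background-subtracted, with a detection p-value deposited beside each. A separate table of the authors' processed log2 values was quantile normalized. BeadStudio 3.2 and lumi were used, per the submitters' processing notes, in roles left unstated, and the background method is not given in the sources used here. Of the probes 23978 name 1 gene, per the platform annotation.

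Intensities were processed with neqc (limma 3.58.1, R 4.3.3, offset 16, 798 negative controls inferred from detection p-values). The 2 arrays of a line, whose correlation was 0.994 to 0.997, were averaged. A probe was kept if 1 line or more had it detected, at p under 0.05, on array a and on array b (61.9% of probes), and the probe with the highest mean stood for a gene. All 13 lines entered 1 linear model of group means (7 residual degrees of freedom, 9.29 moderated), groups of 1 line being assumed to vary like the others. P-values measure the spread between lines; whether lines came from separate animals is not stated. Bounds written "at least" set the higher mean against the floor of the lower group's arrays. The fit was tested on simulated independent normal values with a shift added in the iPSC lines, which do not model compression at background.

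Text names all members, at most 4 called genes per list by size of difference, the highest and lowest r per list, and the 3 genes most like each member (5 at each end for their mean). Members and lists were chosen with earlier results of these data known. Alternatives covered normalization, the authors' values, the filter, the probe rule, arrays as random block, b arrays, the lines fitted, the replicate block and leaving out lines. Sequences are those of RefSeq, GRCm38.p6, read with Python 3.11.15.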

Additional observations from a re-analysis of the deposited data

Results flagged for a closer look

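Among the 4 iPSC lines, iPSC 2 stood far from the others for Fgf5, at a log2 level of 6.06 against 4.40 to 4.59 in the other iPSC lines. Its gap to the nearest of them was 0.889 of the group's whole range. For Wnt8a, iPSC 2 was at 6.02 against 4.25 to 4.33 in the others, a gap of 0.956 of the range. The other iPSC lines were at or near background: for Wnt8a none of their arrays detected the gene, and for Fgf5 iPSC 1 was undetected and iPSC 3 and iPSC 4 were detected on 1 array each. Their spread is compressed there, so that any line with a clear signal would stand out in this way. The iPSC and gPSC lines were examined for 5 genes, 10 groups of lines in all. Chance flags about 1 in 20 groups of freely varying values, a rate that cannot be applied to these compressed ones. Both flags come from the same line and the same arrays.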

How the results depend on the processing

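Otx2 stayed called against GSC under every alternative run, at 5.33 to 5.56 (iPSC) and 5.17 to 5.57 (gPSC) as lines were left out. The count of the 5 genes called between gPSC and GSC was 2 with the authors' processed values (Otx2 and Fgf5, limma, adjusted p = 0.0399). It was 4 with 26 arrays and the line as a random block (also Fgf5, Fgf8 and Wnt8a, limma, adjusted p = 0.0065, 0.0237 and 0.0346). That setting takes 1 correlation between the arrays of a line for all genes. For these 3 genes the SD between lines was 9.87 to 13 times that between arrays. Technical arrays can thus count in part as replicates there, and these p-values can be too small. The count ran from 1 to 3 as gPSC lines were left out, with 3 without gPSC 3. In the main fit 21.6% of all genes were called between gPSC and GSC. That share is not given here for the other settings, so their counts of the 5 genes cannot be read against it. The median rho of the order was 0.861 on b arrays, 0.842 on a arrays and 0.850 to 0.917 as lines were left out. With values raised to the floor, a setting chosen after the data were seen, it was 0.891. This median covers all 10 pairs and does not show the 4 negative pairs with Otx2. As lines were left out, rho ran from 0.833 to 0.983 among the other 4 genes and from -0.80 to -0.467 with Otx2. Directions reversed, all in differences that were not called, for Fgf8 between iPSC and GSC (-0.034 with the authors' values, -0.175 to 0.31 as lines were left out), Pou3f1 between gPSC and GSC (-0.60 to 0.31), Otx2 between iPSC and gPSC (-0.11 to 0.28), Wnt8a between iPSC and ESC (-0.21 to 0.38) and Pou3f1 between iPSC and ESC (-0.57 to 0). The cause was not tested.

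Over all genes, the calls against GSC (2432 for iPSC, 2306 for gPSC) were 1202 and 1114 without background correction. Those against ESC (24 and 26) were 10 and 9 in that setting, 13 and 13 with detection in at least 4 lines, 60 and 61 with the random block, 2 and 3 with only the 2 groups' lines, and 17 for gPSC with the authors' values. Between iPSC and gPSC 1 gene was called with the authors' values and 3 with the random block, against 0. With the line number as a replicate block, Pou3f1 between gPSC and GSC was 0.062, 2422 and 2362 genes were called against GSC, 1 of the 5 genes in each, and 0 between iPSC and gPSC. The iPSC and gPSC lines with the same number correlated at -0.07 each for numbers 1, 2 and 4 and at 0.68 for number 3. These coefficients are not those of the levels themselves, and they do not mean that the lines were unlike in expression. Likeness of expression cannot show whether lines with the same number share a source, which the labels leave unstated. Signals at background have only a bound, which limits Wnt8a, Fgf5 and Fgf8 in the lower lines.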
